A study of Mus musculus with 2 samples.

Results

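The 10 genes described here encode enzymes that remove superoxide and peroxides or keep the thiol donors for that work in supply. They are Gpx1, Gpx4, Prdx1, Prdx5, Sod1, Sod2, Nqo1, Gclm, Txnrd1 and Srxn1, which were matched by symbol to 10 of the 31253 features of the deposited count tables. The tissue was mouse brain infarct, taken 3 days after tMCAO (transient occlusion of the middle cerebral artery), a stroke model in which an artery is blocked and then reopened, and both groups had this injury. One group carried floxed alleles and is labelled flox in its title and WT in the design text, and the other was a conditional knockout (cKO) of Hilpda, whose product holds back triglyceride breakdown in lipid droplets. The Cre driver, the age and strain of the mice and the number of animals pooled were not stated in the sources read here. Each group was 1 BD Rhapsody single-cell library. No test was made because a group was 1 library, library preparation and genotype cannot be told apart, and every interval below is an exact 95% interval that covers counting error only.

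Superoxide is turned into hydrogen peroxide by superoxide dismutases, of which Sod1 is the copper and zinc enzyme of the cytosol and Sod2 the manganese enzyme of mitochondria. Hydrogen peroxide is then reduced by glutathione peroxidases such as Gpx1 and by peroxiredoxins such as Prdx1 and Prdx5, while the selenoenzyme Gpx4 reduces lipid peroxides inside membranes and so holds off ferroptosis. Glutathione is made by glutamate-cysteine ligase, whose modifier subunit is Gclm, thioredoxin is kept reduced by the selenoenzyme Txnrd1, and Srxn1 repairs overoxidised peroxiredoxins. Nqo1 is a quinone reductase and, with Gclm, Txnrd1, Srxn1 and Prdx1, a textbook target of the transcription factor Nrf2 (Nfe2l2). Reperfused infarcts are known for a burst of such oxidants and for phagocytes that take up lipid-rich debris.

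The flox library held 8065 kept cells with a median of 6997 unique molecular identifiers (UMIs, each 1 captured molecule) and the cKO library 6984 cells with a median of 8741. The 2 libraries shared 49 barcodes among kept cells. Clusters, made without these 10 genes, were called after their markers with "-like" and gave 15 classes with at least 30 cells per library, of which 8 had at least 100 and were compared between libraries. These 8 were monocyte or macrophage-like (3630 flox and 3084 cKO cells), microglia-like (2151 and 1415), oligodendrocyte-like (351 and 359), endothelial cell-like (563 and 542), neutrophil-like (201 and 299), dendritic cell-like (278 and 256), border-associated macrophage-like (189 and 187) and pericyte-like cells (107 and 110). All markers of each class had at least 1 UMI in it in both libraries. Markers of other classes could meet this too, as all 10 microglia markers did in monocyte or macrophage-like cells. In the dendritic cell-like class the 11 monocyte or macrophage markers summed to 3063 and 2599 CPM. The 10 dendritic cell markers summed to less there, 2811 and 2376 CPM. What part this has in the levels of that class was not tested. The pericyte-like class also held smooth muscle markers at a summed 6240 and 5477 CPM, and cells without a class were 2.06% of flox and 2.19% of cKO cells. Levels are counts per 1000000 UMIs (CPM) of the class and library, flox first and cKO second, and are compared for 1 gene across classes, never between genes.

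Gpx1 (chromosome 9:108338903-108340343, plus strand, GRCm38) was a gene of the myeloid classes. It stood at 997 and 1162 CPM in monocyte or macrophage-like, 1008 and 1131 in dendritic cell-like, 959.8 and 1139 in border-associated macrophage-like, 884 and 1003 in neutrophil-like and 775 and 946 in microglia-like cells. Endothelial cell-like cells followed with 623 and 869 CPM, and their interval lay apart from its neighbours on either side in both libraries. All other classes were at or below 578 CPM, down to 278 and 296 CPM in oligodendrocyte-like cells and 143 and 319.8 CPM in neuroblast-like cells. Gpx4 (chromosome 10:80047166-80056439, plus strand) had another order. Choroid plexus epithelial cell-like cells, which make cerebrospinal fluid, led with 354 and 70.7 CPM, and ependymal cell-like cells, which line the ventricles, came next with 202 and 37.6 CPM. In flox the choroid plexus interval lay above that of every other class, and the remaining classes ran from 124 CPM in fibroblast-like to 61.5 CPM in neuroblast-like cells with neighbours that overlapped. The values in cKO were lower in every class and are taken up below.

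Among the peroxiredoxins, Prdx1 (chromosome 4:116685544-116700822, plus strand) and Prdx5 (chromosome 19:6906697-6910106, minus strand) were near opposite in neutrophil-like cells. Prdx1 was lowest there of all 15 classes, at 116 and 217 CPM from 28 and 92 UMIs. It was highest in 4 classes whose intervals overlapped from one to the next, namely fibroblast-like (1040.0 and 872 CPM), astrocyte-like (942 and 895), border-associated macrophage-like (942 and 868) and monocyte or macrophage-like cells (892 and 915). Microglia-like cells had 605 and 669 CPM. Prdx5, which sits in mitochondria, peroxisomes and cytosol, was highest in neutrophil-like cells at 1037 and 1449 CPM and next in choroid plexus epithelial cell-like cells at 758 and 1314 CPM. Monocyte or macrophage-like and border-associated macrophage-like cells had 508 and 823 CPM and 474 and 825 CPM, while endothelial cell-like cells were lowest at 99.7 and 166 CPM. Srxn1 (chromosome 2:152105516-152111376, plus strand) stood out in one class. Oligodendrocyte-like cells, the myelin-forming glia, held 206 and 235 CPM, above the intervals of all other classes in both libraries. Monocyte or macrophage-like cells were at 67.8 and 64.6 CPM, border-associated macrophage-like cells at 59.8 and 87.0, and oligodendrocyte precursor-like cells at only 25.6 and 24.3 CPM. Txnrd1 (chromosome 10:82833951-82897712, plus strand) ran from 227 and 203 CPM in neutrophil-like, 219 and 231 in oligodendrocyte precursor-like and 185 and 259 in dendritic cell-like cells to 71.2 and 59.9 in endothelial cell-like and 49.96 and 54.6 CPM in choroid plexus epithelial cell-like cells.

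The superoxide dismutases also differed in where they were high. Sod1 (chromosome 16:90220754-90226329, plus strand) led in the ventricular epithelia, with 518 and 665 CPM in ependymal cell-like and 429 and 777 CPM in choroid plexus epithelial cell-like cells. Dendritic cell-like (330.3 and 461 CPM) and endothelial cell-like cells (307 and 461.5) came next, and border-associated macrophage-like cells were lowest with 139 and 183 CPM. Sod2 (chromosome 17:13006846-13040063, plus strand) led in neutrophil-like cells with 607 and 819 CPM, apart from every other class in both libraries. Choroid plexus epithelial cell-like cells had 310.2 and 333 CPM and monocyte or macrophage-like cells 288 and 334 CPM. Endothelial cell-like cells were lowest at 102 and 110.0 CPM, so that Sod1 was among the higher and Sod2 among the lower classes there.

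Gclm and Nqo1, the remaining Nrf2 targets, each had their highest level outside the myeloid classes. Gclm (chromosome 3:122245557-122270732, plus strand) was at 198 and 113 CPM in ependymal cell-like, 113 and 183 in astrocyte-like, 129 and 141 in endothelial cell-like, 94.3 and 137 in oligodendrocyte-like and 79.3 and 125 CPM in monocyte or macrophage-like cells. Microglia-like cells were lower, at 41.5 and 52.5 CPM, and dendritic cell-like cells had 23.9 and 24.8 CPM. Nqo1 (chromosome 8:107388225-107403206, minus strand) was highest in choroid plexus epithelial cell-like cells, with 47.9 and 72.3 CPM from 23 and 90 UMIs. Astrocyte-like cells had 14.2 and 20.7 CPM, ependymal cell-like cells 8.09 and 29.3 CPM from 2 and 7 UMIs and endothelial cell-like cells 8.19 and 10.2 CPM. The choroid plexus interval overlapped that of astrocyte-like cells in flox (30.4 to 71.8 and 3.86 to 36.3 CPM) and that of ependymal cell-like cells in cKO (58.1 to 88.8 and 11.8 to 60.3 CPM). Pericyte-like cells had only 0 and 1 UMIs of Nqo1. In the myeloid classes Nqo1 was near 0, with 18 and 40 UMIs over all monocyte or macrophage-like cells (0.582 and 1.25 CPM) and 17 and 17 UMIs over all microglia-like cells.

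**Figure D1:**
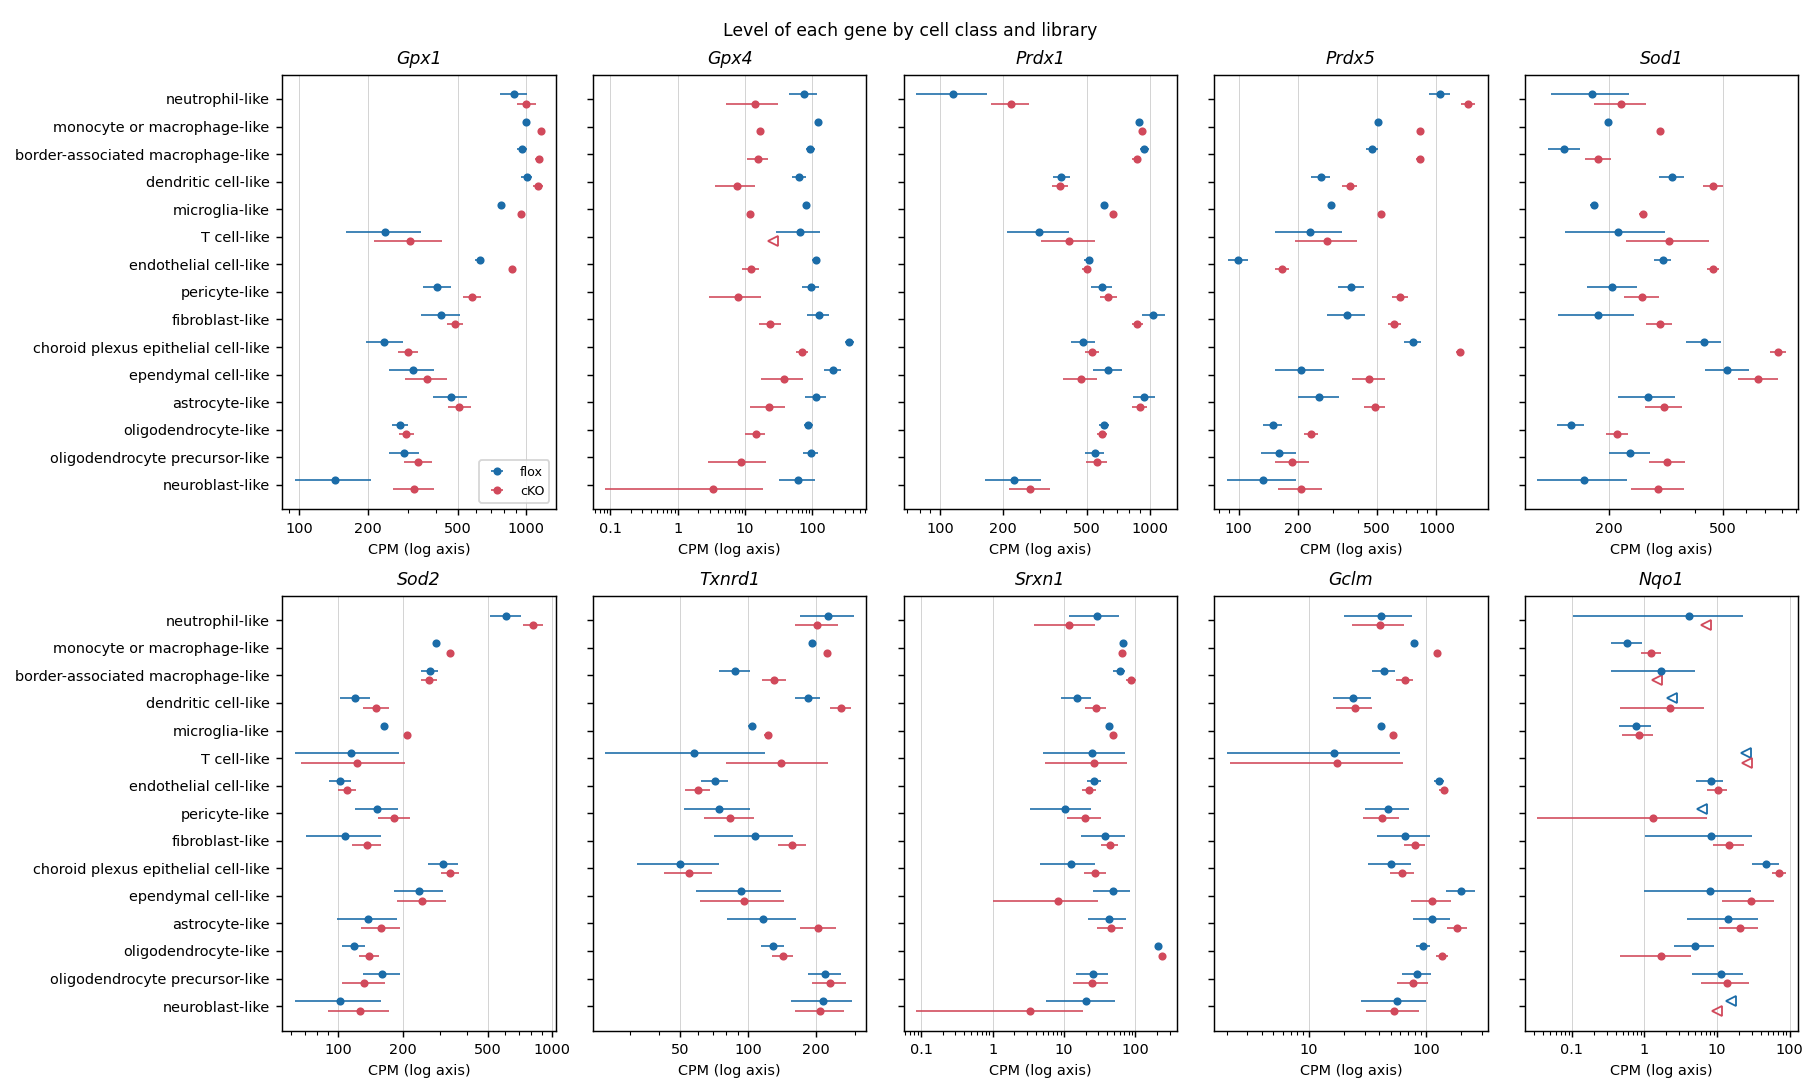
Level of each of the 10 genes in CPM (log axis, with its own range in each panel) by cell class, for the flox (blue) and the cKO library (red). Bars are exact Poisson 95% intervals and open triangles mark 3 counts where a class had 0 UMIs. Gpx1 is highest in the myeloid rows, Sod2 and Prdx5 in neutrophil-like, Srxn1 in oligodendrocyte-like and Nqo1 in choroid plexus epithelial cell-like cells, and every red Gpx4 point lies to the left of the blue one.

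The order of the 15 classes was similar in both libraries for most genes. The rank correlation between the libraries was 0.968 for Prdx5, 0.946 for Gpx1, 0.929 for Sod1 and for Sod2, 0.914 for Gclm, 0.889 for Prdx1, 0.850 for Gpx4 and 0.843 for Txnrd1, and it was lower for Nqo1 (0.749) and Srxn1 (0.593). These values describe 15 classes that share library and depth within each group. Across the flox classes the level of 1 gene outside the 10 followed Gpx1 with Pearson r of 0.905 on log2(CPM + 1), namely Nfe2l2, the Nrf2 gene, and r was 0.854 in cKO. Gpx4 was followed by Ecrg4, a secreted choroid plexus protein, with r of 0.907 in flox and 0.757 in cKO. For the other 8 genes none of the 5698 genes searched reached 0.9 in flox, the library in which they were ranked.

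Promoters of these genes were searched for the core of the antioxidant response element, to which Nrf2 binds with a small Maf protein. The letters TGACNNNGC, on either strand, occurred within 250 bases before a RefSeq start site in 4 of the 10 genes (GRCm38.p6). Of all 27025 genes 11.5% had a match. The 10 genes had 15 start sites, of which 4 had a match, against 10.2% of all 32851 start sites. The 4 matches are shown with 20 bases on each side, read 5′ to 3′ on the plus strand, which is the strand of all 4 genes, with the match in capitals. All lie outside annotated protein-coding exons, the only exons checked, and all match on the opposite strand, so the capitals read GCNNNGTCA.
Gclm, chr3:122245403-122245451, 134 to 126 bases before the start: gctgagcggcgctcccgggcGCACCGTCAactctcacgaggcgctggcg
Prdx1, chr4:116685446-116685494, 133 to 125 bases before the start: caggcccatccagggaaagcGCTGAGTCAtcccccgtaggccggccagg
Sod1, chr16:90220686-90220734, 56 to 48 bases before the start: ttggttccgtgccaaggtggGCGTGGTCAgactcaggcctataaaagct
Txnrd1, chr10:82859094-82859142, 92 to 84 bases before the start: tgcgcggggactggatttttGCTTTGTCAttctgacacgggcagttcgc
The Prdx1 match overlaps the letters TGANTCA, the AP-1 site. A match describes letters, not binding, and its absence in the windows of the other 6 genes says nothing of Nrf2 there.

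The second question was how these genes differed between the libraries. Of 80 pairs of gene and class, 71 had at least 30 UMIs over both libraries. Gpx4 was at least 2-fold lower in cKO in all 7 classes where it could be compared, and the other 9 genes in none. The counting interval lay above 0 in 40 of the 64 pairs without Gpx4, below 0 in 1 and included it in 23. Of all genes tested, the share with an interval above 0 was 25.2% in monocyte or macrophage-like, 21.0% in microglia-like, 10.6% in border-associated macrophage-like, 8.03% in dendritic cell-like, 11.1% in endothelial cell-like, 11.3% in oligodendrocyte-like, 10.4% in pericyte-like and 8.70% in neutrophil-like cells, and the share with one below 0 was, in the same order, 23.5%, 27.4%, 12.97%, 12.9%, 23.1%, 13.3%, 10.3% and 9.58%. Intervals narrow with more UMIs, of which these 64 pairs had a median of 870.5 and the pairs of all genes 212. The median log2 ratio of cKO over flox was taken over those of the 10 genes with at least 30 UMIs. It included Gpx4 except in neutrophil-like cells. It was 0.22 for 10 genes in monocyte or macrophage-like cells beside 0.01 for all 11439 genes tested there. In microglia-like cells it was 0.26 (10 genes) beside −0.04 and in endothelial cell-like cells 0.12 (10 genes) beside −0.10. With 9 genes each it was 0.40 beside −0.01 in border-associated macrophage-like, 0.33 beside −0.04 in dendritic cell-like and 0.19 beside −0.01 in oligodendrocyte-like cells. It was 0.21 (8 genes) beside 0.01 in pericyte-like cells. The 0.39 beside 0.05 in neutrophil-like cells came from 6 genes without Gpx4.

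Gpx4 was the gene with the widest gap. In monocyte or macrophage-like cells it had 3703 UMIs in flox and 541 in cKO, which is 119.8 and 16.9 CPM (log2 ratio −2.83, −2.96 to −2.70). Microglia-like cells had 1778 and 245 UMIs, 79.9 and 11.97 CPM (−2.74, −2.94 to −2.55). The other classes lay between −2.57 in border-associated macrophage-like (93.2 and 15.7 CPM) and −3.58 in pericyte-like cells (46 and 6 UMIs), with endothelial cell-like cells at −3.19 (111 and 12.2 CPM). Neutrophil-like cells, with 18 and 6 UMIs, were under the count minimum. The gap was present in blood-derived, resident and vascular cells alike. Among all genes tested, the share at least 2-fold lower was 5.30% in monocyte or macrophage-like, 5.76% in microglia-like, 4.93% in border-associated macrophage-like, 4.79% in dendritic cell-like, 7.23% in endothelial cell-like, 4.80% in oligodendrocyte-like, 4.82% in pericyte-like and 3.88% in neutrophil-like cells. Counted from the lowest ratio, Gpx4 was 33rd of 11439 genes in monocyte or macrophage-like, 65th of 11495 in microglia-like, 27th of 9713 in endothelial cell-like and 3rd of 5916 in pericyte-like cells.

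Genes with a GC-rich transcript end, Gpx4 among them, were lower in cKO. The last 500 nt of Gpx4 had 56.4% GC, the highest of the 10 genes. In the monocyte or macrophage-like class, genes with 40 to 45% GC had a median of 0.04 and those with 55 to 60% one of −0.39, and of the latter 30.3% were at least 2-fold lower. Minus the median of genes of like GC, Gpx4 was at −2.42 in that class and between −2.23 and −3.37 over the 7 classes. The medians subtracted were only −0.21 to −0.48, so all 7 were bound to remain past 2-fold. Subtracting a median does not remove the spread among genes of like GC. Prdx5 (53.8%) and Gpx1 (53.0%), the next highest in GC, were higher in cKO. They fall among genes with 50 to 55% GC, which had a median of 0.03 in the monocyte or macrophage-like class. Of those genes 8.20% were at least 2-fold lower. What part GC plays in the Gpx4 gap was not tested further.

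**Figure D2:**
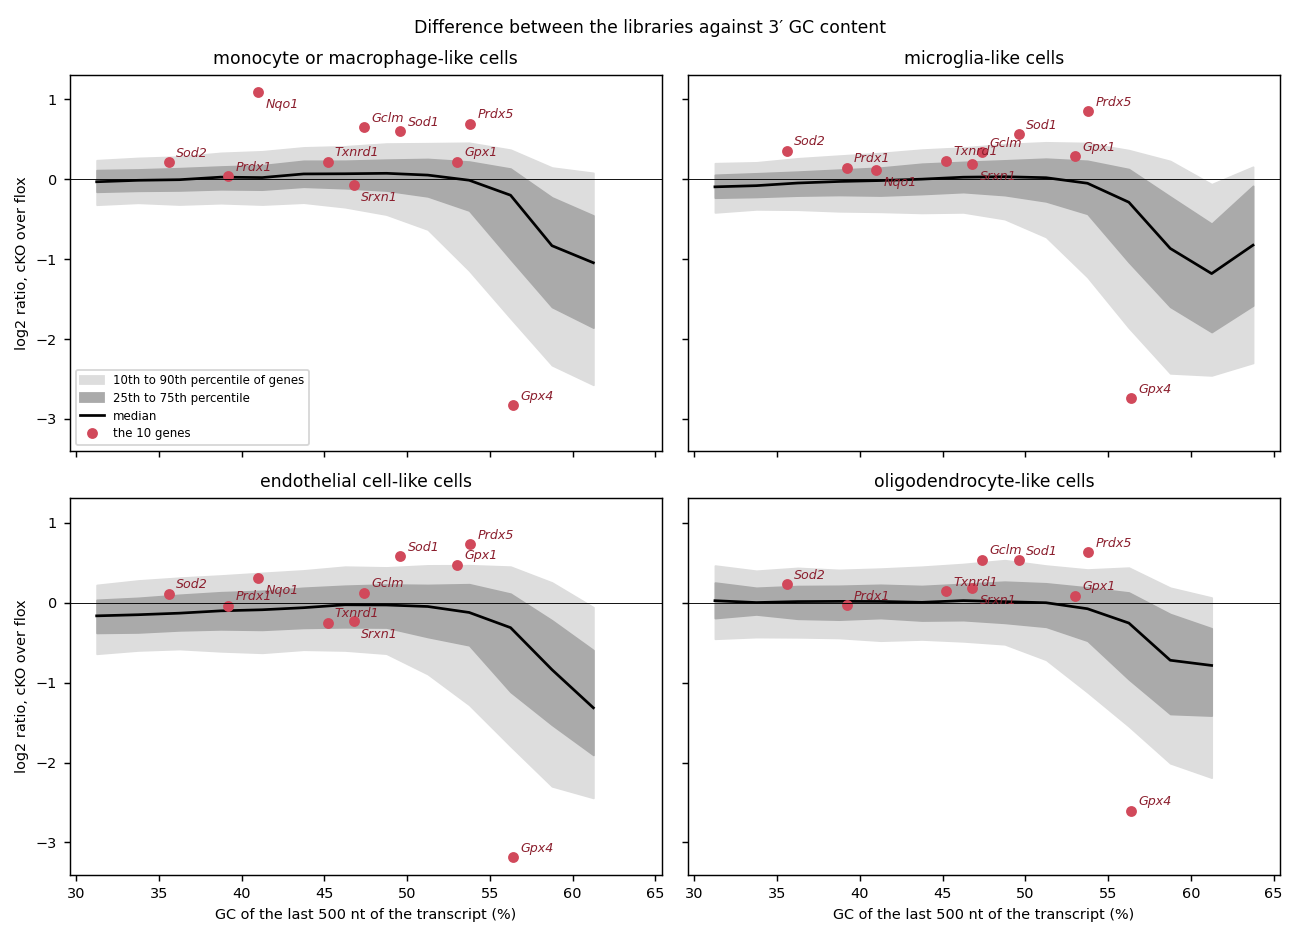
Log2 ratio of cKO over flox against the GC content of the last 500 nt of the transcript in 4 cell classes. The line is the median and the bands the middle 50% and 80% of all genes tested, and red points are the 10 genes. Gpx4 lies below the lighter band in each panel (−2.83 in monocyte or macrophage-like cells), while Prdx5 and Sod1 lie above 0.

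Prdx5, Sod1 and Gpx1 had a log2 ratio above 0 in all 8 classes. Of all genes tested in a class, from 38.8% (endothelial cell-like) to 53.8% (neutrophil-like) were above 0. The share of all genes above 0 in every class was not computed. For Prdx5 the log2 ratio ran from 0.48 in neutrophil-like to 0.85 in microglia-like cells, and all 8 intervals lay above 0. In microglia-like cells it stood at 292 and 527 CPM, in monocyte or macrophage-like cells 508 and 823 CPM (0.70, 0.67 to 0.73), and in oligodendrocyte-like cells 149 and 232 CPM (0.64, 0.44 to 0.84). Sod1 ran from 0.34 in pericyte-like and in neutrophil-like cells, whose intervals included 0, to 0.60 in monocyte or macrophage-like cells (198 and 301 CPM). Gpx1 ran from 0.09 in oligodendrocyte-like (−0.07 to 0.25) to 0.51 in pericyte-like cells, and its intervals included 0 in oligodendrocyte-like and neutrophil-like cells. Sod2 was above 0 in 7 of 8, at most 0.43 in neutrophil-like cells (607 and 819 CPM, 0.15 to 0.72). Prdx5, Sod1 and Gpx1 all had intervals above 0 in the monocyte or macrophage-like, microglia-like, border-associated macrophage-like, dendritic cell-like and endothelial cell-like classes.

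Gclm, Txnrd1 and Srxn1 varied more by class. Gclm was at 79.3 and 125 CPM in monocyte or macrophage-like cells (0.65, 0.58 to 0.73), 43.5 and 65.9 in border-associated macrophage-like (0.60, 0.19 to 1.02) and 94.3 and 137 in oligodendrocyte-like cells (0.54, 0.28 to 0.80). In endothelial cell-like cells it was at 129 and 141 CPM (0.13) and in pericyte-like cells at −0.17, both with intervals that included 0. Txnrd1 was at 0.57 in border-associated macrophage-like (87.5 and 130.3 CPM) and 0.49 in dendritic cell-like cells, but at −0.25 (−0.53 to 0.03) in endothelial cell-like cells. Srxn1 was at 0.54 (0.19 to 0.90) in border-associated macrophage-like and −0.07 (−0.16 to 0.02) in monocyte or macrophage-like cells, and in oligodendrocyte-like cells, where it was highest, at 0.19 (0.01 to 0.37). Whether these classes differ from one another was not tested.

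Only 1 pair was at least 2-fold higher in cKO, Nqo1 in monocyte or macrophage-like cells at 1.10 (0.26 to 1.99). It rests on the 18 and 40 UMIs given above, and it was not past the rule with a minimum of 100 UMIs or with classes set cell by cell from markers, where no pair was. The 9 choroid plexus markers, none at 0, summed to 231 and 238 CPM in these cells against 173252 and 166342 CPM in their own class. Their part in the Nqo1 value was not tested. The share of all genes at least 2-fold higher was 0.743% in monocyte or macrophage-like, 0.592% in microglia-like, 1.22% in border-associated macrophage-like, 0.801% in dendritic cell-like, 0.824% in endothelial cell-like, 1.10% in oligodendrocyte-like, 2.97% in pericyte-like and 2.36% in neutrophil-like cells. At least 1.5-fold higher were 13 of 71 pairs. They were Prdx5 in 6 classes, Sod1 in endothelial cell-like and monocyte or macrophage-like, Gclm in border-associated macrophage-like and monocyte or macrophage-like, Nqo1 in monocyte or macrophage-like, Srxn1 in dendritic cell-like and Prdx1 in neutrophil-like cells. Of all genes, 2.77% passed that fold in monocyte or macrophage-like, 2.68% in microglia-like, 3.74% in border-associated macrophage-like, 3.26% in dendritic cell-like, 3.17% in endothelial cell-like, 3.89% in oligodendrocyte-like, 6.59% in pericyte-like and 5.39% in neutrophil-like cells.

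Summed over a class, Prdx1 had log2 ratios between −0.12 and 0.14 outside neutrophil-like cells, while clusters within classes lay further apart, as given below. In monocyte or macrophage-like cells it was at 892 and 915 CPM (0.04, 0.01 to 0.06), and in border-associated macrophage-like cells at 942 and 868 CPM (−0.12, −0.22 to −0.02), the only interval below 0 other than those of Gpx4. In neutrophil-like cells the ratio was 0.91 (0.28 to 1.57) from 28 and 92 UMIs, and 0.15 with doublets kept. In that class the 11 monocyte or macrophage markers summed to 2437 and 2075 CPM, the 10 microglia markers to 711 and 876 CPM and the neutrophil markers to 34501 and 23742 CPM. No monocyte or macrophage marker was at 0 there in either library. Their part in the ratio was not tested.

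**Figure D3:**
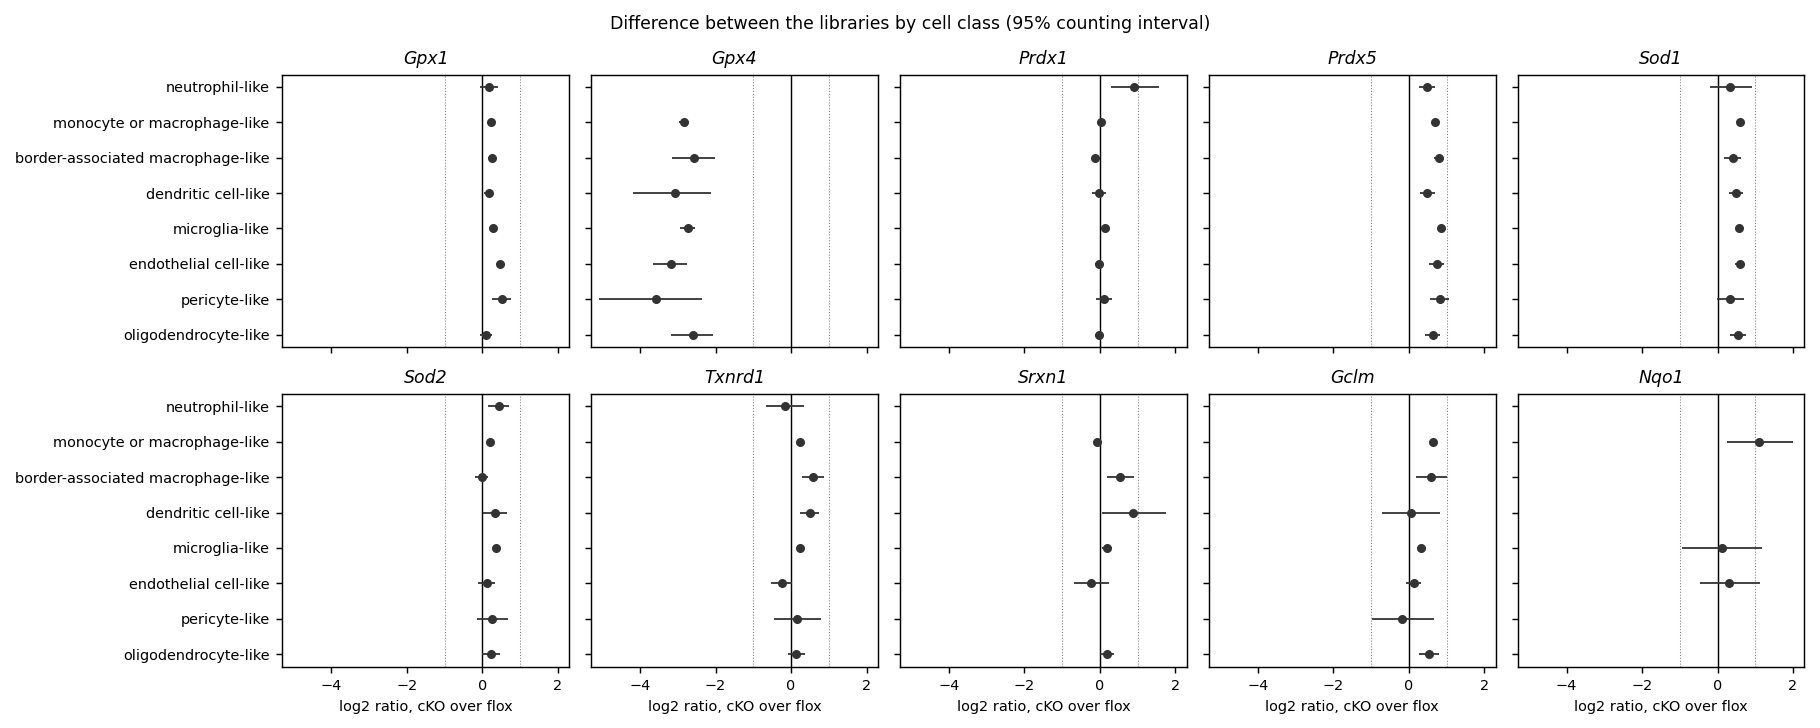
Log2 ratio of cKO over flox for each gene in the 8 compared classes, where at least 30 UMIs were counted. Bars are exact 95% counting intervals and dotted lines mark 2-fold. Gpx4 lies left of the lower dotted line in 7 classes, at −2.57 to −3.58, Prdx5 lies right of 0 in all 8, at 0.48 to 0.85, and Prdx1 lies between −0.12 and 0.14 except in neutrophil-like cells.

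Within monocyte or macrophage-like cells the genes marked different clusters. Cluster 3, led by Mgst1, a membrane glutathione transferase, and Gpnmb, a glycoprotein of lipid-laden phagocytes, had the most Gclm, at 123 and 237 CPM (0.95, 0.80 to 1.09). Cluster 0, led by Fabp4 and Gpnmb, had 88.7 and 131 CPM (0.56), and cluster 12, led by Plac8 and Ifitm6, genes of blood monocytes, only 26.4 and 33.2 CPM. Prdx1 followed the same direction, with 1057 and 1245 CPM in cluster 3 and 419 and 500.3 CPM in cluster 12. Sod2 and Prdx5 went the other way. Sod2 was at 506 and 586 CPM in cluster 12 and at 219.8 and 220.4 CPM in cluster 3, and Prdx5 at 821 and 1267 CPM in cluster 12 and 467 and 755 CPM in cluster 3. Gpx1 differed little between clusters, from 953 to 1135 CPM in flox. The ratio of Prdx5, Sod1, Gpx1 and Txnrd1 was above 0 in 6 of 6 clusters, and that of Gpx4 in none. Intervals lay above 0 in 6 of 6 for Prdx5, Sod1 and Gpx1 and in 5 of 6 for Txnrd1. The share of all genes was not computed by cluster, and in the whole class 25.2% had an interval above 0. Prdx1 was split, with 3 intervals above 0 and 2 below, from −0.40 in cluster 28 to 0.26 in cluster 12.

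Among microglia-like cells cluster 4, led by Siglech, Slc2a5 and P2ry12, genes of resting microglia, was low for most of the genes. Gpx1 was there at 492 and 514 CPM against 859 and 1005 CPM in cluster 2, led by Mmp12, Cd5l and Lpl, which are genes of activated, lipid-handling microglia. Prdx1 was at 259 and 204 CPM against 745 and 812 CPM, Sod2 at 94.2 and 85.7 against 191 and 230.2 CPM, and Gclm at 25.3 and 29.5 against 50.8 and 64.0 CPM. Txnrd1 did not share this pattern in flox, with 97.7 CPM in cluster 4 and 92.3 CPM in cluster 2. Cluster 4 was 30.7% of flox but 17.6% of cKO microglia-like cells, and cluster 2 was 31.8% and 43.5%. The mix of clusters thus moved with the microglia-like sums. Prdx1 was higher in cKO in the whole class (0.14, 0.11 to 0.18) but in only 1 of 5 clusters, cluster 2 at 0.12, and it was at −0.35 in cluster 4. Gpx1, Prdx5 and Sod1 had ratios above 0 in 5 of 5 clusters, with intervals above 0 in 5 for Prdx5 and in 4 each for Gpx1 and Sod1. Shares of all genes by cluster were not computed here either, and 21.0% had an interval above 0 in the whole microglia-like class. The endothelial cell-like class shifted likewise, with cluster 15, led by Spock2, Slco1a4 and Flt1, at 38.5% of flox and 15.1% of cKO cells. Gpx1 was lower in that cluster (437 and 520 CPM) than in cluster 5, led by Tmem252, Igfbp7 and Ly6a (693 and 901 CPM). Its ratio was 0.25 (−0.02 to 0.52) in cluster 15, which includes 0, and 0.38 (0.29 to 0.47) in cluster 5, beside 0.48 for the whole class. In cluster 15 the intervals of Prdx5 (0.42, −0.15 to 0.97) and Sod1 (0.30, −0.03 to 0.62) included 0 too. In cluster 5 those of Prdx5 (0.76) and Sod1 (0.60) lay above 0. Prdx1 had −0.57 (−0.94 to −0.22) in cluster 15 and −0.10 (−0.21 to 0.01) in cluster 5, beside −0.03 for the whole class. Hilpda, the gene targeted in cKO, was not lower there in every cluster. In microglia-like clusters its ratio ran from 0.22 (−0.62 to 1.03) in cluster 23 to 1.04 (0.89 to 1.18) in cluster 6. In monocyte or macrophage-like clusters it ran from −1.06 in cluster 0 (654 and 315 CPM) to 0.18 (−0.20 to 0.55) in cluster 12. The deleted exons were not stated.

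**Figure D4:**
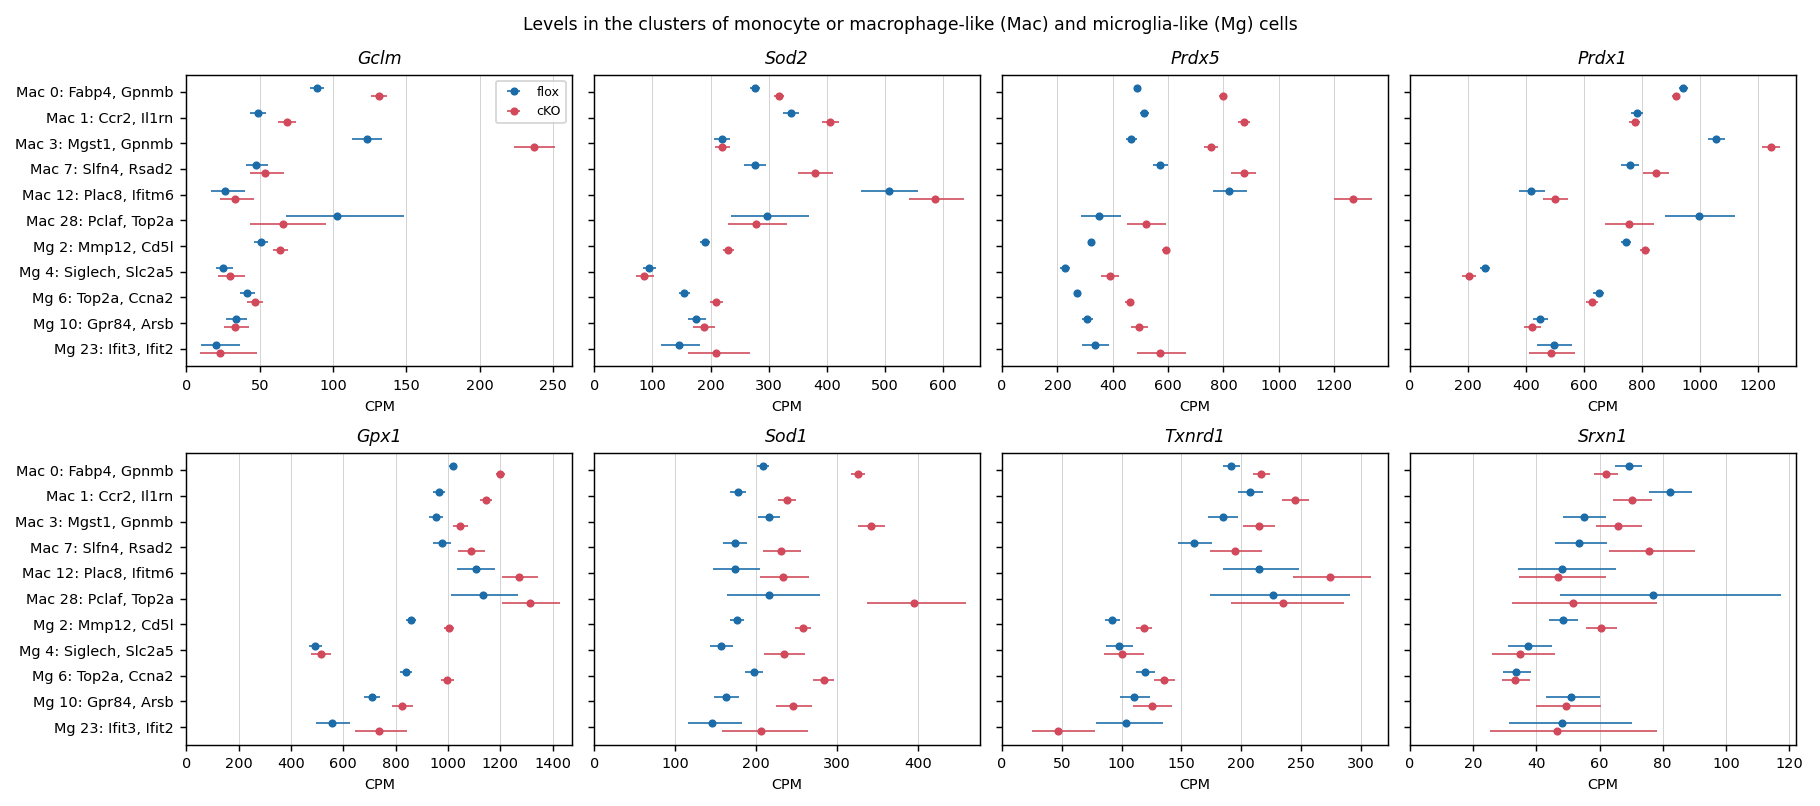
Levels in CPM of 8 of the genes in the 6 clusters of monocyte or macrophage-like (Mac) and the 5 clusters of microglia-like cells (Mg), each named by its number and 2 leading genes, in flox (blue) and cKO (red). Bars are exact Poisson 95% intervals. Gclm peaks in Mac 3 (123 and 237 CPM), Sod2 and Prdx5 in Mac 12, and Gpx1 and Prdx1 are low in Mg 4.

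The other genes of these pathways were taken as 79 genes in 9 lists, none of them among the 10. Of 488 gene and class pairs with enough UMIs, 9 (1.84%) were at least 2-fold higher and 21 (4.30%) at least 2-fold lower in cKO. Over all genes and the same 8 classes the shares were 1.12% and 5.38% of 66478 pairs, so the lists together lay near the background, and the genes below are named as a description. Glutathione synthesis and reduction had 3 higher (4.29%) and 1 lower (1.43%) of 70 pairs, with class medians from −0.25 to 0.57. The cystine carrier Slc7a11 was higher in dendritic cell-like cells (34.2 and 70.5 CPM, 1.04), glutathione reductase Gsr in border-associated macrophage-like (11.3 and 26.6 CPM, 1.23) and pericyte-like cells, and the peptidase gene Ggt5 was lower in border-associated macrophage-like cells (−1.12). Of the thioredoxin list 4 of 59 pairs (6.78%) were lower and none higher, and all 4 were Sesn2, a stress-induced sestrin, for example in neutrophil-like (−1.39) and endothelial cell-like cells (−1.07). None of 29 peroxiredoxin pairs and none of 15 pairs of the superoxide dismutase and catalase list passed in either direction. Of 9 glutathione peroxidase pairs 1 was lower, the secreted Gpx3 in monocyte or macrophage-like cells (54.7 and 22.8 CPM, −1.26).

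Selenoproteins and the factors that make them had 8 lower (8.51%) and 1 higher (1.06%) of 94 pairs, beside the 5.38% and 1.12% of all genes. The endoplasmic reticulum selenoprotein Selenom was lower in pericyte-like (−2.73), microglia-like (−2.46), monocyte or macrophage-like (−2.36), endothelial cell-like (−2.30) and oligodendrocyte-like cells (−1.55). Its transcript end had 59.2% GC, as did that of Osgin1. Eefsec, the elongation factor for selenocysteine, was lower in border-associated macrophage-like (−1.34) and Sepsecs, which makes its charged tRNA, in dendritic cell-like cells (−1.29). Selenop, which carries selenium in plasma, was higher in pericyte-like cells (320.4 and 813 CPM, 1.34, 1.09 to 1.61). Pericyte markers summed there to 16898 and 11059 CPM and monocyte or macrophage markers to 1514 and 1658 CPM. Microglia markers summed to 197 and 528 CPM and border-associated macrophage markers to 181 and 382 CPM. The part of markers of other classes in the Selenop value was not tested. Class medians of the list were between −0.08 and 0.15.

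Nrf2 target enzymes had 3 higher (2.83%) and 6 lower (5.66%) of 106 pairs, and Nrf2 control genes 2 higher (3.17%) and none lower of 63. Osgin1, an oxidative stress response gene, was lower in border-associated macrophage-like (−2.92), microglia-like (−2.76) and monocyte or macrophage-like cells (20.7 and 3.62 CPM, −2.52). In neutrophil-like cells the glutathione transferases Mgst1 (−1.50) and Gstm1 (−1.39) were lower, while Gstm1 was higher in dendritic cell-like cells (1.18). Haem oxygenase Hmox1 was at 30.8 and 102 CPM in pericyte-like cells (1.73, 0.92 to 2.64), and the Nrf2 competitor Bach1 at 41.1 and 99.8 CPM there (1.28), beside the marker sums given for Selenop. Akr1b8, an aldo-keto reductase, was higher in microglia-like cells (1.02), and the Nrf2 partner Mafk in endothelial cell-like cells (73.3 and 151 CPM, 1.04). Of 43 pairs of the lipid peroxide list 1 was lower, Coq8a of ubiquinone synthesis in microglia-like cells (−1.36). Chosen after their values were seen, Gclc, the catalytic partner of Gclm, was at 50.8 and 54.0 CPM in monocyte or macrophage-like cells (0.09, −0.01 to 0.19) and Nfe2l2 itself at 295 and 277 CPM (−0.09, −0.13 to −0.05).

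Some of the genes share their place with others. The 3′ end of Sod1 overlaps Scaf4 on the opposite strand, Prdx5 overlaps Trmt112 on the opposite strand at their 5′ ends, and Eid3 lies inside Txnrd1 on the same strand. Trmt112 had 16627, Scaf4 3101 and Eid3 364 UMIs over all barcodes. Whether counting used strand is not stated, so reads from the shared stretches of Prdx5 and Trmt112 or of Sod1 and Scaf4 may not be told apart. Trmt112 itself had log2 ratios from −0.25 in dendritic cell-like to 0.36 in pericyte-like cells, and its interval lay above 0 in monocyte or macrophage-like cells alone (114 and 123 CPM, 0.10). Scaf4 had its highest ratio in oligodendrocyte-like cells, at 0.59 (0.05 to 1.15) from 47 and 77 UMIs. In microglia-like cells it was at −0.23 (−0.41 to −0.04) and in monocyte or macrophage-like cells at 0.05 (−0.10 to 0.21). The part of either neighbour in the Prdx5 and Sod1 ratios was not tested.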

How the data were processed

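The deposited matrices hold UMI counts of each gene in each barcode, unnormalized whole numbers. Per the submitters' processing notes the authors used CASAVA 1.8, STARsolo and Seurat with build mm10. The sources used here name no annotation, counting settings or cell caller. Totals were 67864602 UMIs over 8593 flox barcodes and 70665440 over 7382 cKO barcodes.

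Kept cells had at least 500 UMIs, 200 genes and at most 25% mitochondrial UMIs, and Scrublet doublets (210 and 142) were left out. Both libraries were clustered together with scanpy 1.11.5 and leidenalg 0.10.2 (2000 variable genes without the 10 genes and the 79 pathway genes, 30 components, 20 neighbours, resolution 1). Clusters took the class whose markers stood highest over the median of all clusters, with at least 3 detected, a rule set after clusters were seen. UMIs were summed per class and library.

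The size rule asked for 2-fold, 30 UMIs over both libraries and a 95% interval without equal levels. A gene at 0 UMIs was set against 3 counts. From the pathway lists the 3 highest and 3 lowest ratios past the rule in each class are named, and the second Gsr value was chosen after it was seen, as were the clusters described. GC and coordinates came from GENCODE vM21 (31107 features matched), promoters from RefSeq. On simulated counts with counting error only, 99.0% of 3-fold changes were recovered in monocyte or macrophage-like cells (11452 genes) and 95.3% in pericyte-like cells (5914 genes). Of the unchanged genes, 0.249% and 1.46% passed the size rule in these classes. The 10 genes and all lists were chosen with earlier results of these data known. Alternatives covered scaling (TMM, edgeR 4.0.16), cell weight, filters, doublets, resolution, classes and GC.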

Additional observations from a re-analysis of the deposited data

Results flagged for a closer look

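Prdx1 had a counting interval above 0 in neutrophil-like cells, with a log2 ratio of cKO over flox of 0.91, and below 0 in border-associated macrophage-like cells, with −0.12. The ratios of these classes thus pointed in opposite directions, and with 1 library per group the difference between them was not tested. The neutrophil-like value came from 28 flox and 92 cKO UMIs and was 0.15 with doublets kept.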

How the results depend on the processing

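Of the 71 compared pairs of gene and class, all could be recomputed under 6 of 8 alternatives, 70 with at most 10% mitochondrial UMIs and 66 with the marker gate. From 0 to 5 of them changed sign under any one alternative, and none of the 8 pairs past 2-fold did where it was recomputed. The 7 pairs lower in cKO, all Gpx4, numbered 5 to 8 under every alternative run. The 1 pair higher in cKO became 2 when each ratio was set against genes of similar 3′ GC, 13 at 1.5-fold, 0 with at least 100 UMIs and 0 with classes set cell by cell from markers. The 9 higher pathway pairs became 14 against genes of similar GC, 33 at 1.5-fold and 3 with at least 100 UMIs, and the 21 lower ones became 35 at 1.5-fold and 9 with at least 100 UMIs. The cause of these changes was not tested beyond the smaller number of pairs at 100 UMIs. The class with the highest level was the same in 18 of 20 gene and library cases with equal weight per cell, 11 of 12 with at most 10% mitochondrial UMIs and 12 of 17 with the marker gate. The mitochondrial limit and the marker gate thus cover only part of the 20 cases. Counting intervals hold no variation between animals, and depth limits Nqo1 in all myeloid classes and most genes in neutrophil-like cells. No paired analysis was possible because each group is 1 library.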
